A study of Mus musculus with 2 samples.

Results

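Mast cells with the transcripts of S phase entry were 288 of the 6541 barcodes sequenced from 2 cultures of early mouse tissue. They were chosen in steps. Of 5158 barcodes with 1000 to 5000 genes and at most 5% of unique molecular identifiers (UMIs, counted transcripts) from mitochondrial genes, 3992 held at least 40 UMIs of *Cpa3* and under 20 of *Mcpt1* per 10000 UMIs. *Cpa3* encodes the carboxypeptidase of mast cell granules, and *Mcpt1* a protease of mucosal mast cells. The 400 cells highest in the summed UMIs of *Aspm*, *Hmmr*, *Cenpf*, *Mki67*, *Prc1* and *Plk1*, genes used at mitosis, were set apart as mitotic cells (the top 10%). Of the remaining 3592 cells, called the pool, the top 8% by summed UMIs of *Ccne1*, *Ccne2*, *Clspn*, *Rrm2*, *Tcf19* and *Dtl* per 10000 were chosen. The other 3304 cells of the pool served for comparison.

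Both cultures came from C57/BL6 concepti at embryonic day 8.5 with 5 to 7 somite pairs, held for 9 to 10 days at an air-liquid interface with SCF, IL-3 and FLT3L at 100 ng/ml each. Em-Ex was grown from intraembryonic tissue and YS-Ex from the yolk sac. From each, cells sorted as CD31+CD45+c-Kit+CD41- gave 1 droplet library pooled over several concepti, so no culture or animal could be told from another within a library. The chosen cells rest on 3723371 UMIs in Em-Ex, with 1430599 in YS-Ex. Neither library has a replicate. No test could be run, and every interval below covers counting error only.

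A cell that leaves G1 does so when cyclin D kinases, then cyclin E with CDK2, release E2F factors from the pocket protein RB. E2F then drives a wave of genes for the MCM helicase, the polymerases, the supply of nucleotides and the packaging of new chromatin, and a later wave for G2 and mitosis follows. Mast cells differ from most granulocytes in that they can still divide after they have begun to fill their granules, and SCF and IL-3 are the cytokines that keep them growing in culture.

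The values that chose the cells are given here as a description. The lowest score of a chosen cell was 2.16 UMIs per 10000. The 20 cells just inside this limit scored 2.16 to 2.48 and the 20 just outside 1.98 to 2.16, with a median of 2 of the 6 genes seen on either side, so the limit cut a continuous range. A score of 0 was held by 1305 of 1863 Em-Ex and 1373 of 1729 YS-Ex cells of the pool. At least 3 of the 6 genes had a UMI in 169 of 205 chosen Em-Ex cells and 69 of 83 chosen YS-Ex cells, against 18 of 1658 and 8 of 1646 other cells. *Rrm2*, the small subunit of ribonucleotide reductase, gave 56.3% of the score's UMIs in Em-Ex and 30.3% in YS-Ex, more than any other score gene in either library. The 4 genes that name the cells were all far above the other cells. *Rrm2* stood at 374 CPM (UMIs per 1000000) in chosen Em-Ex cells against 9.31 in the others, and at 176 against 3.10 in YS-Ex. *Ccne2* stood at 36.3 CPM in chosen and 1.28 CPM in other Em-Ex cells, and at 82.5 against 1.95 CPM in YS-Ex. *Clspn* stood at 62.8 CPM in chosen and 2.46 CPM in other Em-Ex cells, and at 102 against 2.55 CPM in YS-Ex. *Tcf19* stood at 73.1 CPM in chosen and 5.03 CPM in other Em-Ex cells, and at 76.2 against 3.65 CPM in YS-Ex. *Ccne2* encodes a cyclin E, *Clspn* the checkpoint adaptor Claspin, and *Tcf19* a nuclear protein of proliferating cells. DNA content was not measured, so the name rests on transcripts.

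Promoter windows are shown because the genes that set these cells apart are known E2F targets, and the letters can be read directly. Each window runs from 250 bases before to 50 after a start site in RefSeq (build GRCm38.p6), 300 bases 5′ to 3′ on the strand of the gene. Capitals mark the core of an E2F site, searched on both strands as TTTCCCGC, TTTCGCGC, TTTGCCGC or TTTGGCGC, where neighbouring matches on opposite strands can share letters. *Clspn* and *Dtl* are score genes, and *Mcm5*, *Mcm6*, *Cdc6* and *Hells* were outside the score. The windows shown were picked because they hold a match. Of the score genes, 5 had a window, and only these 2 held the core.
Clspn, chr4:126556730-126557029, plus strand: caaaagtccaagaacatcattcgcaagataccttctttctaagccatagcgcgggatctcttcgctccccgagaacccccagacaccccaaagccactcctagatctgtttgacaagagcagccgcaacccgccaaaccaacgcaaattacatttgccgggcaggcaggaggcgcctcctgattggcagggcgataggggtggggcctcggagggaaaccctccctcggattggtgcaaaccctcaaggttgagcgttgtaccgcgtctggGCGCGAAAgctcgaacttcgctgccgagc
Dtl, chr1:191575495-191575794, minus strand: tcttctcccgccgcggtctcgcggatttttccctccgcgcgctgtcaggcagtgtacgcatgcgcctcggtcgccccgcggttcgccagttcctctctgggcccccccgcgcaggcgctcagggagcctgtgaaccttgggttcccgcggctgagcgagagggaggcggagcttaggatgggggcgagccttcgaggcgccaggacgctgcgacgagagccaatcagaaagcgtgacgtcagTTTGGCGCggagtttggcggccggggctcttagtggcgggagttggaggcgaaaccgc
Mcm5, chr8:75109259-75109558, plus strand: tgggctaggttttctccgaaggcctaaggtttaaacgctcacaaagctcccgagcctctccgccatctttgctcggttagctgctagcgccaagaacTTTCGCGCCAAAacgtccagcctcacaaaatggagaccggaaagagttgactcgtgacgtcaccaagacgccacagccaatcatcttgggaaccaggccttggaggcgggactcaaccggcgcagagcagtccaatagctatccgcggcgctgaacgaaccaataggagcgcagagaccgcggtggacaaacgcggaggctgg
Mcm6, chr1:128359656-128359955, minus strand: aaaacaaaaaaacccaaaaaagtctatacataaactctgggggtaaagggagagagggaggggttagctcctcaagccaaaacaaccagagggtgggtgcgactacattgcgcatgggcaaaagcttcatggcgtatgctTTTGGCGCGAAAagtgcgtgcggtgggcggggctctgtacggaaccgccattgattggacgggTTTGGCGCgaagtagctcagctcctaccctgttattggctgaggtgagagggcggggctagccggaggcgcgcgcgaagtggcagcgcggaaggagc
Cdc6, chr11:98907901-98908200, plus strand: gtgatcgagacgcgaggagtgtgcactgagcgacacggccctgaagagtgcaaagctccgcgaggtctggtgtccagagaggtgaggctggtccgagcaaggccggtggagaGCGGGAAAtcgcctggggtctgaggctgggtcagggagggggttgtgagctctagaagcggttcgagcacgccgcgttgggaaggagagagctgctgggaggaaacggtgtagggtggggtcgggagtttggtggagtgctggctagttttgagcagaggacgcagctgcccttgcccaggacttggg
Hells, chr19:38930740-38931039, plus strand: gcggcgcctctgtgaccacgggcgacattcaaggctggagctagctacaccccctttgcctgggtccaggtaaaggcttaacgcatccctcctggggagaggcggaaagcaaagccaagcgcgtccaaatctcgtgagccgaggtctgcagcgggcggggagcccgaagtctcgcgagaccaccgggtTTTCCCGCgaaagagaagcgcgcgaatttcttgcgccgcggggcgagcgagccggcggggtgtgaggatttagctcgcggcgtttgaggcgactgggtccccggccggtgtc
*Mcm5* and *Mcm6* each hold a pair of overlapping matches, and *Mcm6* a separate match nearer the start site, so its window has 3. The E2F core was in 744 of 32851 (2.26%) of all RefSeq windows, in 453 of 11325 (4.0%) windows of the genes in the UMI table, and in 16 of 69 (23.2%) windows of the DNA replication genes described below, of which 58 of 69 had an entry. It was in 3 of 11 (27.3%) windows of ribosome biogenesis genes and in 1 of 28 (3.57%) of the genes of late S, G2 and mitosis. In that later list, 20 of 28 (71.4%) windows held TTTGAA, the letters of the CHR element known from mitotic genes, against 10 of 69 (14.5%) of the replication genes, 1368 of 11325 (12.1%) of the genes in the UMI table and 5878 of 32851 (17.9%) of all windows. CCAAT was in 22 of 28 (78.6%) of the later list, 32 of 69 (46.4%) of the replication genes, 4312 of 11325 (38.1%) of the table and 12289 of 32851 (37.4%) of all. It was as frequent in chromatin assembly genes (13 of 16 windows, 81.2%) and in the score genes (4 of 5). These counts describe letters in a window and no factor was measured on them.

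The chosen cells made up a larger share of the Em-Ex pool than of the YS-Ex pool. In Em-Ex they were 205 of 1863, 11% (95% interval 9.62 to 12.5), and in YS-Ex 83 of 1729, 4.80% (95% interval 3.84 to 5.92). These are exact Clopper-Pearson intervals over cells and hold no spread between cultures. The mitotic shares were 10.3% of Cpa3-high, Mcpt1-low cells in Em-Ex and 9.71% in YS-Ex. A score at or above the limit was held by 38.8% of the mitotic cells in Em-Ex and 52.2% in YS-Ex, so many cells with the same transcripts had been set apart with the mitotic ones. Counted together, cells at or above the limit were 13.9% and 9.40% of Cpa3-high, Mcpt1-low cells, a smaller gap in the same direction.

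The chosen cells held more UMIs than the others. Their median was 18252 UMIs against 10446 in Em-Ex and 16665 against 11259.5 in YS-Ex, while the mitotic cells held 18202 and 19970.0. Among cells under 8000 UMIs, 8 cells (1.74%) were chosen in Em-Ex, and 11 cells (3.08%) in YS-Ex. Between 8000 and 16000 UMIs the shares were 6.93% and 2.46%. At 16000 UMIs or more they were 31.4% and 12.2%. The plot of the share chosen by UMIs per cell shows the higher share in Em-Ex in the upper and middle ranges and in YS-Ex in the lowest, each from 1 library. Whether larger cells, more complete capture or both gave the extra UMIs was not tested. When every cell was thinned to 3000 UMIs before choosing, the shares were 12.8% (225 of 1751) and 6.66% (109 of 1636). At that depth scores tie at the limit, so more than 8% of the pool was taken. Of these cells, 117 in Em-Ex and 42 in YS-Ex were also chosen without thinning. Barcodes found in both libraries numbered 35 in all, with 2 among the chosen cells of each library.

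**Figure D1:**
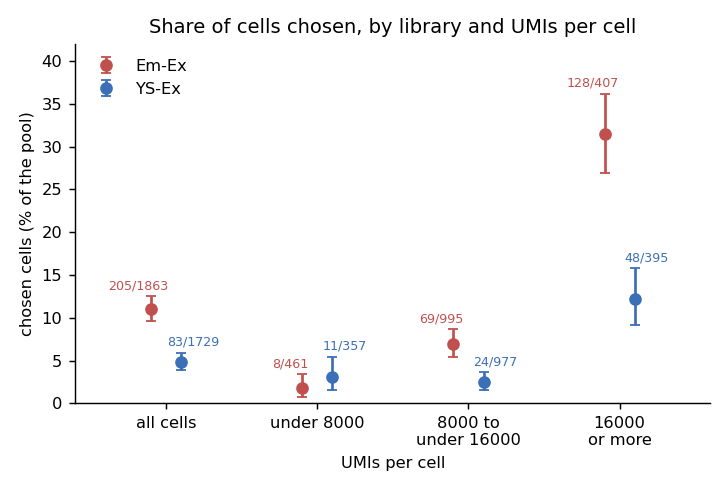
Chosen cells as a percentage of the pool (y axis) in all cells and by UMIs per cell (x axis), for Em-Ex in red and YS-Ex in blue. Bars are exact 95% Clopper-Pearson intervals and the fractions give chosen over all pool cells, with 205 of 1863 in Em-Ex and, in YS-Ex, 83 of 1729. Shares rise towards deeper cells in Em-Ex and are highest in the deepest cells of both libraries.

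Each score gene was also read in cells chosen by the other 5 genes alone, so that its own UMIs had no part in the choice. *Rrm2* was then 13.7-fold (95% interval 12.3 to 15.3) higher in chosen than in other cells of Em-Ex and 43.2-fold (95% interval 32.8 to 57.6) higher in YS-Ex. *Ccne2* was 19.7-fold (95% interval 13.3 to 30.1) and 35.1-fold (95% interval 24.7 to 50.8) higher. The lowest of the 6 was *Dtl*, which encodes the substrate receptor that removes the licensing factor CDT1 in S phase, at 8.69-fold in Em-Ex and 10.9-fold in YS-Ex. The 6 genes were picked together with results of these data known, so these ratios describe the choice. Each left-out gene gave a larger ratio in YS-Ex than in Em-Ex.

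The genes of the replication machinery rose as a body in the chosen cells of both libraries. Of the 69 genes in 4 lists (the MCM helicase, origin licensing and firing, the polymerases with the clamp and fork, and nucleotide supply), 64 were at least 1.5-fold higher in Em-Ex and 64 in YS-Ex, none was 1.5-fold lower, and the median log2 ratio was 2.20 and 2.49. Over all genes with UMIs in both groups, 20.4% were 1.5-fold higher in Em-Ex and 18.0% in YS-Ex, and 13.6% and 15.5% lower, and the unfiltered counts of the lists below stand beside these shares. Of the replication genes at 20 CPM or more in the pool, 38 of 41 were 1.5-fold higher in Em-Ex (median log2 ratio 2.16), as were 21 of 25 in YS-Ex (1.55). Over all genes at that level the share 1.5-fold higher was 14.5% in Em-Ex (619 of 4278) and 9.63% in YS-Ex (448 of 4653), with a median log2 ratio of 0.07 and 0.00258. In all, 322 genes were 1.5-fold lower in Em-Ex and 405 in YS-Ex, and with UMIs scaled without the 50 most abundant genes, 626 were higher and 542 lower in Em-Ex and 523 and 688 in YS-Ex. A gene can pass 20 CPM through the chosen cells themselves. Of the replication genes at 20 CPM in the other cells alone, 24 of 27 in Em-Ex and, in YS-Ex, 18 of 22 were higher. The cells were chosen from the same counts on genes of this program, so these numbers describe them and were put to no test.

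**Figure D2:**
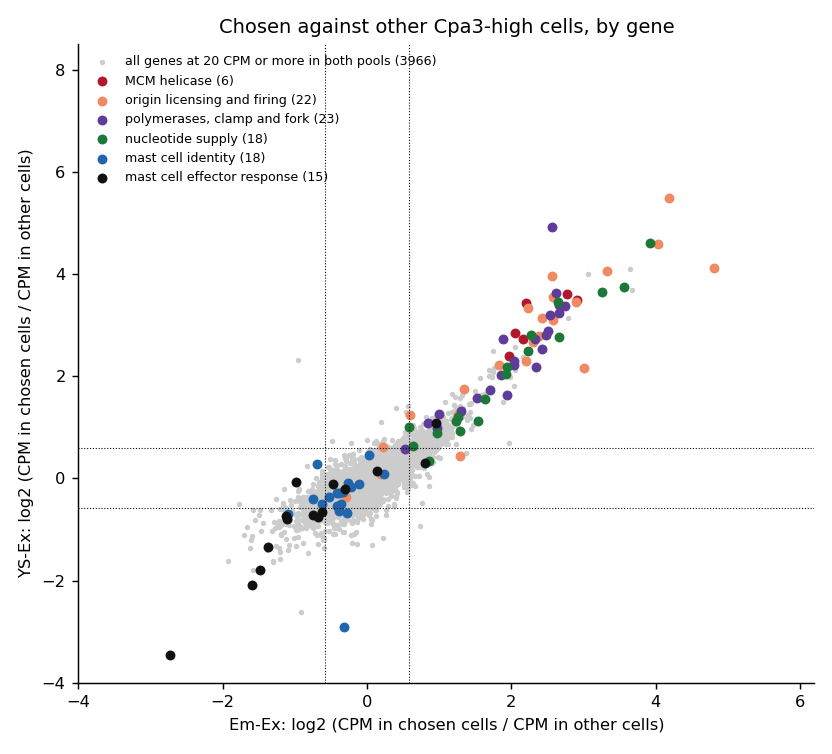
Log2 ratio of CPM in chosen to other cells in Em-Ex (x axis) and YS-Ex (y axis), 1 point a gene. Grey points are the 3966 genes at 20 CPM or more in both pools, without the genes of the rule, and coloured points are members of 6 lists with UMIs in both groups of cells, at any level. Dotted lines mark 1.5-fold. Most replication genes lie at the upper right, with a few such as Orc4, Orc5 and Rfc2 inside the dotted lines. The effector genes Tnfrsf9, Ccl3 and Ccl2 lie at the lower left.

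The 6 MCM genes encode the ring that is loaded on origins in G1 and unwinds DNA in S phase. Summed over the 6, chosen cells held 836 CPM in Em-Ex and 833 in YS-Ex, nearly the same level, while the other cells held 173 and 111. *Mcm5* rose most in YS-Ex, from 10.3 CPM (95% interval 8.90 to 11.8) to 125 CPM (95% interval 107 to 145), and in Em-Ex went from 20.9 to 142 CPM. *Mcm7* was 7.54 (95% interval 6.53 to 8.72) times the level of other cells in Em-Ex and 11.3 (95% interval 9.01 to 14.1) times in YS-Ex. *Mcm3*, which gave the smallest of the 6 ratios, still stood 3.93-fold and 5.23-fold higher. Cell by cell, the median was 8.01 MCM UMIs per 10000 in chosen Em-Ex cells (lowest 0, highest 21.6) and 8.15 in chosen YS-Ex cells (lowest 0, highest 17.9), against 0.742 and 0 in the others. Single cells of the groups overlapped, since other cells reached 16.3 and 14.8. An MCM UMI was seen in 97.1% of chosen and 56.1% of other Em-Ex cells, and in 94.0% and 47.3% in YS-Ex. With each cell thinned to 3000 UMIs these became 88.8% and 28.2%, and 83.1% and 20.8%.

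Among the 22 genes of origin licensing and firing, 19 were 1.5-fold higher in each library, against 20.4% and 18.0% of all genes. At 20 CPM or more these were 7 of 8 in Em-Ex and 5 of 7 for YS-Ex. *Cdc6*, which loads the helicase, stood at 36.3 CPM in chosen against 4.87 CPM in other Em-Ex cells, and at 51.0 against 4.66 CPM in YS-Ex. Its partner *Cdt1* was 4.68-fold and 10.0-fold higher. *Mcm10* and *Cdc45*, needed to fire a loaded origin, were barely seen in the other cells (1.28 and 2.14 CPM in Em-Ex) and reached 23.4 and 34.9 CPM in the chosen ones. The subunits of the origin recognition complex did not move together. *Orc6* was 4.93-fold and 6.33-fold higher and *Orc1* 10.0-fold and 16.6-fold, whereas *Orc4* gave log2 ratios of 0.19 and 0.08 and *Orc5* of -0.29 and -0.37, inside 1.5-fold in both libraries.

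In the list of polymerases, clamp and fork, 22 of 23 genes were 1.5-fold higher in each library, and the exception was *Rfc2* of the clamp loader (log2 ratio 0.53 and 0.57). *Pcna*, the sliding clamp, rose from 41.4 to 171 CPM in Em-Ex and from 42.7 to 209 in YS-Ex. *Fen1* and *Lig1*, which finish the lagging strand, were 6.67-fold and 6.34-fold higher in Em-Ex and 10.4-fold and 10.4-fold in YS-Ex. For nucleotide supply, 17 of 18 genes were 1.5-fold higher in each library. The salvage enzyme *Tk1* gave the highest ratio of this list, 15.1 (95% interval 12.4 to 18.6) in Em-Ex and 24.3 (95% interval 16.0 to 37.2) in YS-Ex. *Tyms* and *Shmt1*, enzymes of the thymidylate cycle, were 4.81-fold and 11.8-fold higher in Em-Ex, and 6.95-fold and 13.5-fold in YS-Ex. The gene inside 1.5-fold was *Paics* of purine synthesis in Em-Ex (log2 ratio 0.58) and *Mthfd2* in YS-Ex (0.34).

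Genes of chromatin assembly were higher too. All 14 genes of that list were at least 1.5-fold higher in both libraries. *Chaf1a* and *Chaf1b*, subunits of the chaperone that places histones behind the fork, were 8.40-fold and 7.08-fold higher in Em-Ex and 20.9-fold and 15.1-fold in YS-Ex. *Hells*, a remodeler that DNA methylation depends on, rose from 11.3 to 94.5 CPM in Em-Ex and from 12.9 to 207 CPM in YS-Ex. *Uhrf1*, which brings the maintenance methyltransferase to new DNA, was 7.88-fold and 13.4-fold higher, and *Dnmt1*, that methyltransferase, 3.23-fold and 4.37-fold. The smallest ratio in the list was that of *Rbbp4* (1.51 and 1.52), a histone-binding protein shared by several complexes.

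Of 23 genes for the replication checkpoint and repair, 22 were 1.5-fold higher in each library, with *Tonsl* the exception (log2 ratio 0.002 and 0.34). Few of them reached 20 CPM in the pool, 3 in Em-Ex and 5 in YS-Ex, so most ratios rest on few UMIs in the other cells. *Chek1*, the kinase that holds late origins back, was 9.61 (95% interval 6.30 to 14.9) times higher in Em-Ex and 31.1 (95% interval 18.5 to 54.0) times in YS-Ex. *Ung*, the glycosylase that removes uracil from DNA, went from 14.7 to 72.8 CPM in Em-Ex and from 5.51 to 64.3 in YS-Ex.

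Among the E2F factors, the activator *E2f1* was 3.84 (95% interval 3.16 to 4.66) times the level of other cells in Em-Ex and 5.89 (95% interval 4.46 to 7.71) times in YS-Ex. The atypical repressors *E2f7* and *E2f8*, themselves E2F targets, were at 9.40 and 29.0 CPM in chosen Em-Ex cells and 9.79 and 25.2 in YS-Ex, against 0.107 and 1.71, and 0.15 and 4.0, in the others. The pocket proteins did not share a direction. *Rbl1* (p107) was 4.61-fold and 6.64-fold higher, while *Rb1* gave log2 ratios of 0.34 and 0.02 and *Rbl2* (p130) of -0.07 and -0.50. Of the 13 genes of this list, 9 were 1.5-fold higher in each library, against 20.4% and 18.0% of all genes. Few reached 20 CPM in the pool, where 0 of 1 in Em-Ex and 1 of 4 for YS-Ex were higher.

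The G1 regulators did not share a direction. Of 18 listed genes, 17 in Em-Ex and 16 in YS-Ex had UMIs in both groups of cells. Of these, 8 in Em-Ex and 9 in YS-Ex were 1.5-fold higher, against 20.4% and 18.0% of all genes, and 3 and 2 were lower. At 20 CPM or more, 2 of 7 were higher in Em-Ex and 1 of 6 for YS-Ex, with median log2 ratios of 0.10 and -0.22. The D cyclins of these cells, *Ccnd2* and *Ccnd3*, were inside 1.5-fold, with *Ccnd2* at 287 CPM in chosen and 372 in other Em-Ex cells and at 305 and 314 in YS-Ex. Their kinase *Cdk4* was 1.92-fold and 2.12-fold higher. The phosphatase *Cdc25a*, which frees CDK2, was 2.73-fold and 3.86-fold higher. The ubiquitin ligase subunit *Skp2*, which marks p27 for destruction, was 5.44-fold and 4.85-fold higher, and *Cdkn1b*, the gene of p27, was lower, at 6.18 against 12.8 CPM in Em-Ex and 29.4 against 55.1 CPM in YS-Ex. *Cdkn1a*, the gene of p21, gave log2 ratios of -0.46 and -0.40, inside 1.5-fold. Another kinase inhibitor gene, *Cdkn2c* (p18), was higher instead, at 12.6 against 2.25 CPM in Em-Ex and 14.0 against 1.15 CPM in YS-Ex. *Fbxo5* (EMI1), which holds back the anaphase-promoting complex from S phase on, was among the sharpest, at 99.9 against 2.193 CPM in Em-Ex and 69.2 against 1.90 CPM in YS-Ex.

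The mitotic cells gave a second reference under the same mast cell limits. Median depth was alike in Em-Ex, and in YS-Ex lower in the chosen cells (16665 against 19970.0 UMIs). The chosen cells were taken from what was left once cells high in 6 mitosis genes had been set apart, so a lower level of genes that move with those 6 is built into the choice. Against them the chosen cells were higher in many genes of the first wave, more so in Em-Ex, and lower in all 34 listed genes of the second. The sum of the 6 MCM genes was 836 CPM in chosen and 329.6 in mitotic Em-Ex cells, and 833 and 442 in YS-Ex. *Ung* was 16.5 (95% interval 10.1 to 28.7) times the mitotic level in Em-Ex and 5.96 (95% interval 4.04 to 8.94) times in YS-Ex. *Cdc6* was 8.20 and 3.05 times, *E2f1* 4.65 and 2.63 times, and *Hells* 4.18 and 2.57 times the mitotic level. In Em-Ex, the mitotic cells held no more *Cdc6* (4.42 CPM) than the other cells (4.87) and less *Ung* (4.42 against 14.7). In YS-Ex, mitotic cells lay between the groups for both genes, with *Ung* at 10.8 and *Cdc6* at 16.8 CPM. Of the 69 replication genes, 61 were above the mitotic level in Em-Ex and 51 in YS-Ex, of which 40 and 21 by 1.5-fold, and 1 and 5 were 1.5-fold lower. One of these was *Dbf4*, which activates the kinase that fires origins, with log2 ratios of -1.42 and -1.63. In the nucleotide supply list of YS-Ex, 2 genes were 1.5-fold higher and 2 lower. Of the 13 genes of E2F and pocket proteins, 10 in Em-Ex and 3 in YS-Ex were above the mitotic level, and 4 in YS-Ex were 1.5-fold lower. With no filter, 10.1% of all genes were 1.5-fold higher than in mitotic cells in Em-Ex and 11.6% in YS-Ex, and 15.2% and 15.5% were lower. Over all genes at 20 CPM or more in these cells, 2.91% were 1.5-fold higher than in mitotic cells in Em-Ex and 2.93% in YS-Ex, and 6.39% and 8.83% were lower. In both libraries together 1.0% were higher, 3.59% lower and 0.14% opposite in sign. Some first-wave genes were near or above the chosen level in mitotic cells of YS-Ex. There *Tk1* gave a log2 ratio of -0.62, past 1.5-fold lower, compared with 0.77 in Em-Ex. The score genes *Rrm2* and *Clspn*, whose values helped to choose the cells, gave -0.16 and 0.18 in YS-Ex, and 1.11 and 1.22 in Em-Ex.

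**Figure D3:**
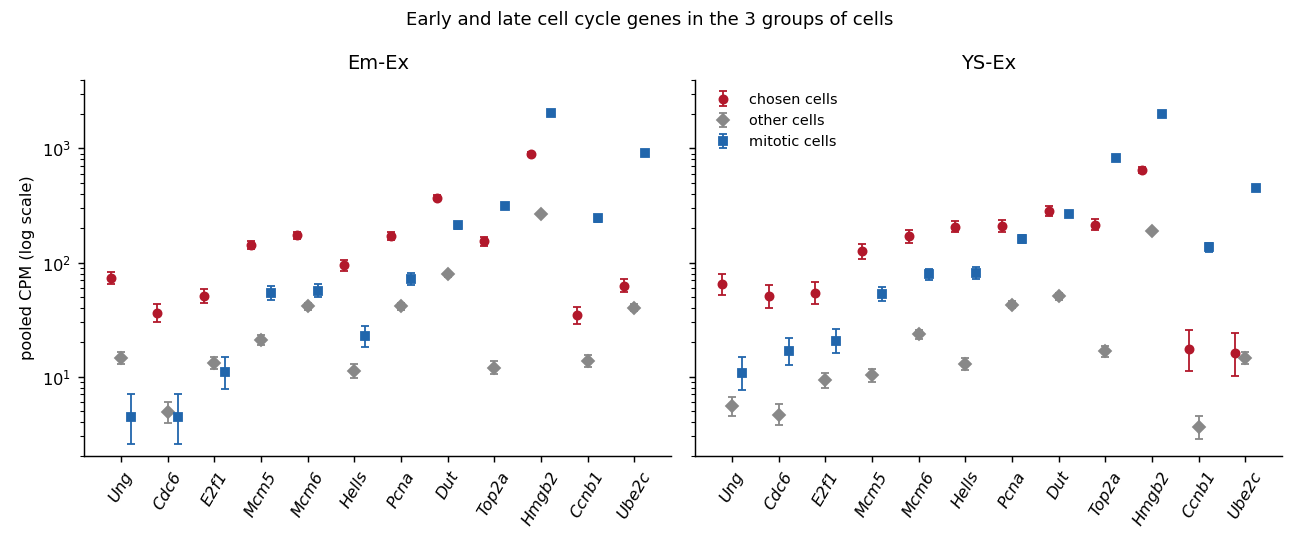
Pooled CPM on a log axis (y axis) of 12 cell cycle genes (x axis) in chosen cells (red circles), other cells (grey diamonds) and mitotic cells (blue squares) of each library, with exact 95% Poisson intervals. Ung, Cdc6, E2f1, Mcm5, Mcm6 and Hells are highest in the chosen cells, and Top2a, Hmgb2, Ccnb1 and Ube2c in the mitotic cells.

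All 34 genes of late S, G2 and mitosis that the rule did not use were at least 1.5-fold lower than in mitotic cells in both libraries, with medians of -1.95 and -2.97 (log2), a direction that the choice of cells favours and that is given as a description. The chosen cells were not at the base level of the pool for these genes, as 30 of 34 in Em-Ex and, in YS-Ex, 27 of 34 were 1.5-fold higher than in the other cells. Of the members at 20 CPM or more in the pool, 10 of 13 were higher in Em-Ex but 2 of 7 for YS-Ex. *Top2a*, the topoisomerase that untangles replicated chromosomes, climbed from 12.0 CPM in other to 153 in chosen and 315 in mitotic Em-Ex cells, and from 16.7 to 215 and 822 in YS-Ex. *Cdk1*, the mitotic kinase, stood at 12.5, 109 and 222 CPM in the same order in Em-Ex and at 4.96, 65.7 and 136 in YS-Ex. *Ccnb2*, *Cenpa* and *Kif23*, used at mitosis itself, were among the few listed genes inside 1.5-fold of the other cells in both libraries. The 6 mitosis genes of the rule, given as a description, were higher in sum in the chosen cells. They held 117 against 20.9 CPM in Em-Ex and 116 against 20.6 in YS-Ex. All 6 were 1.5-fold higher in Em-Ex and 5 in YS-Ex, where 1 was 1.5-fold lower. The summed level of the 34 genes was higher in Em-Ex in every group of cells, at 2719 CPM in chosen, 997 in other and 9291 in mitotic cells. YS-Ex held 1727, 650.4 and 8167. Median log2 ratios of chosen to other cells were 2.00 and 2.21 over the 34 genes, and 1.2 and 0.40 over those at 20 CPM or more, so the order of the libraries turned and the YS-Ex median fell inside 1.5-fold. The difference between the libraries has no replicate check.

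**Figure D4:**
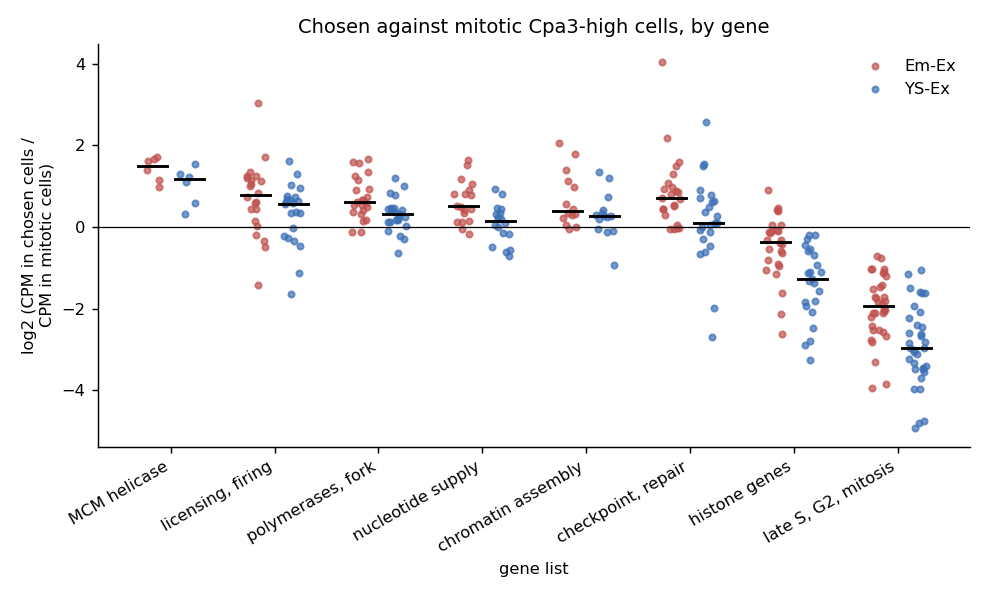
Log2 ratio of CPM in chosen to mitotic cells (y axis) for each gene of 8 lists (x axis), Em-Ex in red and YS-Ex in blue, with black bars at the medians. The MCM genes all lie above 0 and the 34 genes of late S, G2 and mitosis all below it, in both libraries.

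Most histone genes with UMIs in both groups were at least 1.5-fold higher in the chosen cells, 18 of 26 in Em-Ex and 14 of 23 for YS-Ex, against 20.4% and 18.0% of all genes, and 3 were 1.5-fold lower in each library. The median log2 ratio was 1.88 and 0.94. This majority did not hold at 20 CPM or more in the pool. For Em-Ex, 4 of 9 such genes were 1.5-fold higher (14.5% of all genes at that level), with a median log2 ratio of 0.45. YS-Ex had 3 of 9 (9.63% of all genes) and a median of 0.36. At that level, 2 histone genes were 1.5-fold lower in each library. Replication histones, whose transcripts are made in S phase and mostly carry no poly(A) tail, were caught only in part by this poly(A)-primed assay, and 3 of the 29 listed had no row in the table. *Hist1h2ap* rose from 6.36 to 183 CPM in Em-Ex and from 9.56 to 98.6 in YS-Ex, and *Hist1h1b* from 1.18 to 27.9 and from 16.9 to 173. The linker histone gene *Hist1h1c* and the gene *Hist1h2bc* were among the few that went the other way. *Hist1h1c* fell from 317 to 139 CPM in Em-Ex and from 271 to 128 in YS-Ex, and *Hist1h2bc* from 139 to 45.7 and from 132 to 57.3. Near-identical histone genes can share reads, so single members are uncertain. The variant *H2afz* was 2.09-fold and 2.13-fold higher, and the replacement histone gene *H3f3a* was level at log2 0.06 and 0.04.

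MCM levels were already higher in cells that scored above 0 but below the limit than at a score of 0, and the largest step in CPM lay at the limit. The steps are made from the score itself and are a description. In Em-Ex the summed MCM level was 116 CPM in the 1305 pool cells with a score of 0, 276 in cells scoring above 0 to 1, 379 in cells above 1 and below the limit, and 696 and 945 in chosen cells below and above their median score of 5.56. In YS-Ex the same steps were 78.9, 175, 347, 749 and 965 CPM. A score of 0 is not proof that a cell held none of the 6 transcripts, and median depth differed between the steps. In Em-Ex it was 9763, 14687.5, 13236, 17487 and 18984 UMIs, and in YS-Ex 10827, 14859.5, 12218, 17667 and 15903, so it was lowest at a score of 0 but did not follow the MCM level at each step. Its part in the MCM levels was not tested. With only cells of at least 16000 UMIs in both groups, the replication genes at 20 CPM or more had median log2 ratios of 1.52 and 1.84.

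**Figure D5:**
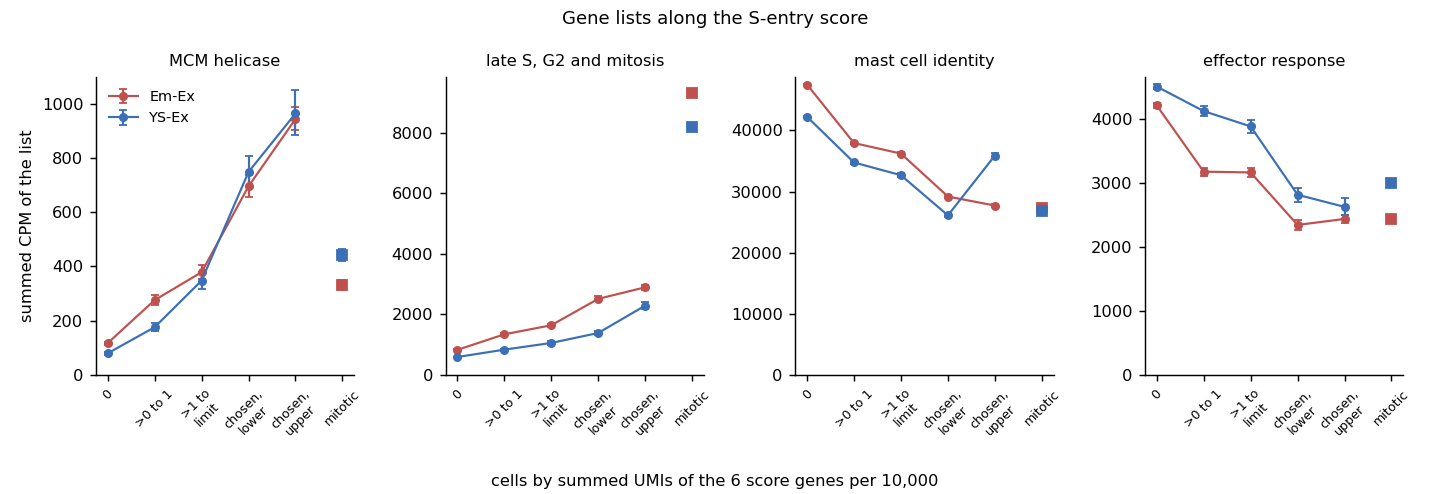
Summed CPM (y axes, from 0) of 4 lists in cells grouped by their score of the 6 S entry genes per 10000 UMIs (x axis), with mitotic cells as squares at the right. Chosen cells are split at their median score, Em-Ex is red and YS-Ex blue, and bars are exact 95% Poisson intervals, often smaller than the points. MCM levels rise to the highest scores and are lower in mitotic cells, while effector genes are highest at a score of 0. Identity genes fall along the score in Em-Ex, and in YS-Ex are higher again in the 31 cells at the top.

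Mast cell identity was set in part by the *Cpa3* limit, so the identity genes outside the rule are described. As a description, *Cpa3* itself was at 10512 against 14397 CPM in Em-Ex and 13940 against 18573 in YS-Ex, inside 1.5-fold. *Mcpt1*, which the rule held under its limit, was at 76.5 against 49.0 CPM in Em-Ex and 39.8 against 15.1 in YS-Ex. These were ratios of 1.56 and 2.64. Of 20 identity genes outside the rule, 19 had a row in the table and none was 1.5-fold higher than in the other cells. Their summed level was lower, at 28353 against 44659 CPM in Em-Ex and 29872 against 40534 in YS-Ex, and close to that of mitotic cells (27276 and 26839.6). At 20 CPM or more, 4 of 17 were 1.5-fold lower in Em-Ex and, in YS-Ex, 3 of 17, against 7.53% and 8.7% of all genes. The granule tryptase *Tpsb2* went from 8570.3 to 4008 CPM in Em-Ex and from 9153 to 5649 in YS-Ex. The chymase *Cma1* was at 11718 against 19676 CPM in Em-Ex, and at 12173 against 16085 in YS-Ex, where it stayed inside 1.5-fold. *Mcpt4*, another chymase, differed between the libraries in sign, with log2 ratios of -0.70 in Em-Ex and 0.28 in YS-Ex, and the Em-Ex sign turned among cells of at least 16000 UMIs. The receptor *Kit* and the regulators *Gata2* and *Mitf* were inside 1.5-fold in both.

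Counted per cell rather than as CPM, the mast cell transcripts of the chosen cells were close to those of the others. The mean number of identity UMIs per cell was 515 against 503.6 in Em-Ex and 515 against 492 in YS-Ex, while the mean over all genes was higher in the chosen cells (18163 against 11277, and 17236 against 12137). *Cma1* stood at 213 against 222 UMIs per cell in Em-Ex and 209.8 against 195 in YS-Ex. *Tpsb2* was lower also per cell, at 72.8 against 96.6 and 97.4 against 111. On the same scale the 6 MCM genes gave 15.2 against 1.95 UMIs per cell in Em-Ex and 14.3 against 1.35 in YS-Ex. A count per cell also moves with how fully a cell was captured, so the scales are given side by side.

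Genes of the effector response, which activated mast cells switch on, were lower. Of those at 20 CPM or more, 9 of 13 in Em-Ex and, in YS-Ex, 7 of 11 were 1.5-fold lower than in the other cells, against 7.53% and 8.7% of all genes. *Tnfrsf9* (4-1BB), a costimulatory receptor, fell furthest, from 46.3 to 6.98 CPM (95% interval 4.56 to 10.2) in Em-Ex and from 45.9 to 4.19 CPM (95% interval 1.54 to 9.13) in YS-Ex. The chemokine *Ccl3* was -1.48 and -1.79 and the cytokine *Il13* -1.37 and -1.34 in log2 ratio. The immediate early genes *Junb*, *Fos* and *Egr1* were lower as well, with log2 ratios of -1.11, -0.74 and -0.68 in Em-Ex and -0.80, -0.71 and -0.76 in YS-Ex. *Tnf* was level (log2 0.13 and 0.15), and *Gzmb*, a granule protease, was higher in Em-Ex (1.74-fold) and inside 1.5-fold in YS-Ex. The mitotic cells held a like summed level of the list (2432 CPM in Em-Ex and 3003 in YS-Ex) to the chosen cells (2399 and 2746). Per cell the sum was 43.6 against 44.3 UMIs in Em-Ex and 47.3 against 53.6 in YS-Ex.

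Growth and stress genes gave different pictures. Of 15 genes for ribosome biogenesis, 14 in Em-Ex and 11 in YS-Ex were 1.5-fold higher, against 20.4% and 18.0% of all genes. At 20 CPM or more these were 10 of 11 and 7 of 9, against 14.5% and 9.63%. Their summed level was 3416 against 2131 CPM in Em-Ex and 3273 against 2065 in YS-Ex, and the mitotic cells stood near the chosen ones (3192 and 3245 CPM). Of 10 p53 targets, 9 had a row in the table, of which none was 1.5-fold higher in either library and 1 in Em-Ex and 2 in YS-Ex were 1.5-fold lower, with sums of 390.2 and 407 CPM in Em-Ex and 349 and 382 in YS-Ex.

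Markers of other cells were low in the chosen cells, as far as the table holds them: 3 of 6 eosinophil, 2 of 6 lymphoid and 1 of 6 endothelial genes had a row. The summed level of 8 lists (eosinophil, neutrophil progenitor, macrophage, erythroid, megakaryocyte, lymphoid, endothelial and stromal) was at most 131 CPM, for erythroid genes in Em-Ex. Neutrophil progenitor genes gave 34.4 CPM in chosen against 11.4 in other Em-Ex cells and 11.2 against 7.16 in YS-Ex, where *Elane* and *Ctsg* had no UMI in chosen cells. The 1 endothelial gene stood at 32.0 against 12.5 CPM in Em-Ex and 26.6 against 16.7 in YS-Ex. Macrophage genes were lower in the chosen cells, at 74.9 against 164 and 44.0 against 56.5 CPM. Erythroid genes were at 131 against 92.8 CPM in Em-Ex and 128 against 234 in YS-Ex. Basophil and stem cell lists share genes with mast cells and reached 861 and 471 CPM in Em-Ex and 506 and 561 in YS-Ex, below the other cells (1204, 684, 768 and 702). The part of doublets or free RNA in these levels was not tested.

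Across the table, 8.3% of genes at 20 CPM or more in both pools (329 of 3966) were 1.5-fold higher in both libraries, 4.19% (166) were lower in both, and 0.0504% (2 genes) went opposite ways. These are *Hbb-bt*, a beta globin gene of red cells, and *Mcpt2*, a protease of mucosal mast cells, the latter named after its values were seen. *Mcpt2* stood at 186 against 362 CPM in Em-Ex and at 760 against 152 in YS-Ex, where 3 of the 83 chosen cells held 910 of its 1087 UMIs. Outside the lists, 10 genes were named for the highest ratio in the library where each was weaker. *2810417H13Rik*, the gene of the PCNA-associated factor PAF15, led them at 563 against 45 CPM in Em-Ex and 368 against 21.5 in YS-Ex. The condensin subunit *Smc2* was 6.90-fold and 8.76-fold higher, and *Topbp1*, which activates the checkpoint kinase ATR, 4.45-fold and 5.22-fold. *Cbx5* (HP1 alpha), *Tmpo* and *Lmnb1*, proteins of heterochromatin and the nuclear lamina, were 4.15-fold, 4.11-fold and 3.35-fold higher in Em-Ex. *Dtymk*, the kinase that follows thymidylate synthase, was 3.27-fold and 3.45-fold higher, and *Syce2*, *Siva1* and *Stmn1* completed the group.

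Among the 10 named lower genes, *Ypel3* gave the lowest ratio in Em-Ex, 0.262 of the level of other cells, and stood at 0.328 in YS-Ex. *Txnip*, a brake on glucose uptake, stood at 44.9 against 117 CPM in Em-Ex and 112 against 294 in YS-Ex. *Hbp1*, a repressor known to slow G1, was at 0.435 and 0.366 of the other cells, and its YS-Ex ratio turned when cells were thinned before choosing. *Egr2* and *Phlda1*, induced on activation, were at 0.325 and 0.404 in Em-Ex and 0.390 and 0.321 in YS-Ex. The others were *Pira2*, *Gm20186*, *Tecpr1*, *Prnp* and *Adora2b*. Against mitotic cells, *Cdca7*, which recruits HELLS to chromatin, was the leading named gene, 3.32-fold higher in Em-Ex and 3.57-fold in YS-Ex, followed by *Gchfr*, *Sucnr1*, *Ptrh2* and *Trmt2a*, while *Cdkn3*, *Knstrn*, *Cep55*, *Nek2* and *Fam64a* led on the mitotic side. *Cdkn3* held 18.3 CPM in chosen and 126 in mitotic Em-Ex cells, and 8.39 and 80.6 in YS-Ex.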

How the data were processed

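Droplet single-cell RNA libraries were made from 1 Em-Ex and 1 YS-Ex sample. The authors deposited raw UMI counts, 11691 genes by 6541 barcodes, and the submitters' processing notes name bcl2fastq 2.19.1.403, Cell Ranger 2.0.1 and mm10. Each gene above 0 in a library had UMIs in at least 30 of its barcodes, so rarer genes are listed at 0. From these counts, cells were chosen as described, and UMIs were summed over each group of cells and scaled per 1000000 (CPM). Levels have exact Poisson, ratios exact conditional and shares exact Clopper-Pearson 95% intervals. Genes at 20 CPM or more in the pool were counted as higher or lower at 1.5-fold, and no test was run. Doublets were not removed. The members, the gene lists and the alternatives were chosen with earlier results of these data known. Genes were named when they were in the lists or the rule, or, outside them, were among the 10 highest and 10 lowest against other cells, or the 5 each way against mitotic cells, ranked by the weaker library. Thinning used 3000 UMIs a cell. Values of some listed genes are not reported here. The steps were tested on simulated data. Python 3.11.15, numpy 2.4.6, scipy 1.17.1, pandas 2.3.3 and matplotlib 3.10.9 were used.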

Additional observations from a re-analysis of the deposited data

Results flagged for a closer look

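*Hbb-bt* and *Mcpt2* were the genes at 20 CPM or more in both pools whose ratio of chosen to other cells passed 1.5-fold upwards in 1 library and downwards in the other. For the globin gene *Hbb-bt* the log2 ratio was 0.73 in Em-Ex and -0.94 in YS-Ex. In Em-Ex, 1 chosen cell held 114 of its 320 UMIs, and 61 of 205 chosen cells held any. In YS-Ex, 13 of 83 chosen cells held the 113 UMIs. For the protease gene *Mcpt2* the log2 ratio was -0.96 in Em-Ex and 2.32 in YS-Ex. In YS-Ex, 26 of 83 chosen cells held its UMIs, and 1 of them held 436 of 1087. Without that cell the chosen cells stood at 461 CPM. The differences between the libraries were not tested, as each is a single sample.

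Barcodes outside the limits on genes and mitochondrial UMIs entered no comparison. Among those of them within the mast cell limits, with the same mitotic limit, a score at or above the limit was held by 5.96% (14 of 235, exact 95% interval 3.29 to 9.79) in Em-Ex and by 5.11% (41 of 803, 3.69 to 6.86) in YS-Ex. They are given because such cells were seen among barcodes left out, and the difference between the libraries was not tested.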

How the results depend on the processing

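The median log2 ratio of the DNA replication genes stayed positive in both libraries under the 25 alternatives that were run, 22 planned and 3 chosen after seeing the data. It ranged from 1.52 to 2.29 in Em-Ex and from 1.05 to 2.49 in YS-Ex. It was 2.20 in YS-Ex with genes at 5 CPM and 2.49 with no filter. In Em-Ex it was 1.53 with genes at 20 CPM in the other cells alone and 1.52 in cells with at least 16000 UMIs, both added alternatives. Leaving out each score gene in turn, or weighing the 6 alike, moved no share, count or median past its limit.

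The share chosen stayed higher in Em-Ex than in YS-Ex in the alternatives that chose over both libraries together. It was 6.07% against 1.79% with the top 4%, 19.2% against 10.5% with the top 15%, 12.8% against 6.66% with cells thinned to 3000 UMIs, and 9.58% against 6.32% with no mitotic cells left out. The top 8% of each library fixed both shares, at 8.0% and 8.04%.

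Counts of genes moved more. Genes at 5 CPM gave 1279 higher and 750 lower in Em-Ex and 1135 and 1039 in YS-Ex. No filter gave 2280 and 1523 in Em-Ex and 1923 and 1654 in YS-Ex, and a limit of 2-fold gave 201 and 70 in Em-Ex and 140 and 78 in YS-Ex. The count of lower genes in Em-Ex was 191 with the top 15%, 542 with UMIs scaled without the 50 most abundant genes and 174 in cells with at least 16000 UMIs. In YS-Ex it was 681 with the top 4%, 128 with the top 15%, 224 with the top 8% of each library, 260 with the top 20% as mitotic cells and 688 with UMIs scaled without the 50 most abundant genes. The filters and the fold limit change the counts by construction, and for the others the cause was not tested.

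Of 2597 ratios of single named genes, 14 changed sign. *Hbb-bt* in Em-Ex was -1.88 (log2) with the top 4%, -1.81 with the top 8% of each library, -0.45 when thinned and -0.93 with no mitotic cells left out, and in YS-Ex 0.55 with the top 20% as mitotic cells and 0.10 when thinned. *Ube2c* in Em-Ex was -0.16 with the top 20% as mitotic cells, -1.58 against all other Cpa3-high cells, which include mitotic cells, and -0.43 with none left out. When thinned, *Gm20186* was 0.038, *Hbp1* 0.20, *Pira2* 0.11 and *Mcpt2* -0.16 in YS-Ex, where 42 of the 109 cells chosen were among the 83 chosen without thinning. *Mcpt4* in Em-Ex was 0.25 in cells with at least 16000 UMIs.

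No paired analysis was possible because each condition had 1 library, with no replicate to leave out. YS-Ex levels rest on 83 chosen cells and Em-Ex levels on 205.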
